A study of Mus musculus with 19 samples.

Results

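The replication-dependent histone genes of the mouse were followed across 19 poly(A)-selected RNA-seq libraries of differentiating embryonic stem cells. Members were the entries of the deposited expression table whose gene name starts with Hist1h, Hist2h, Hist3h or Hist4h and whose value was above 0 in at least 2 libraries. All 64 entries with such a name met this rule, out of 38424 entries in the table. By name they comprised 6 H1, 16 H2A, 17 H2B, 12 H3 and 13 H4 entries, with 51 in the Hist1 cluster on chromosome 13, 9 in the Hist2 cluster on chromosome 3, 3 in the Hist3 cluster on chromosome 11 and 1 Hist4 entry on chromosome 6. Values are FPKM, the fragments of an entry divided by its length in kilobases and by the number of fragments mapped in the library.

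The series asked which genes change when long non-coding RNAs that lie divergent to a developmental gene are depleted in differentiating stem cells. The retinoic acid libraries came from the line 46c, kept for 4 days with 5 nM retinoic acid in N2B27, a neural medium that holds no serum. They were 2 shNr2f1as, 1 shSox21os and 2 libraries labelled shPou3f3os, with 2 controls. The LIF-withdrawal libraries came from cells of strain 129S4/SvJae in serum medium without leukaemia inhibitory factor, the cytokine that holds stem cells undifferentiated. At day 4 these were 2 shEvx1as libraries with 1 control in the line CJ7 and 2 shEVX1 libraries with 1 control in the line CJ9. Also in CJ9 were 2 shFendrr libraries with 2 controls at day 5, and 1 shLhx1os library with 1 control at day 6. All controls carry the label shCtrl. The labels do not say how many hairpins or clones stand behind a group, or whether numbered libraries were separate cultures, so a p-value here reflects the scatter among these libraries alone, which may be technical.

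The FPKM of a library summed to 559050 to 655315, with 12255 to 12825 entries at 1 FPKM or more. Read depth is unknown from these files. The table names an entry for 5 of the 7 targets, and 4 of these were lower in every knockdown library than in the matching controls. The exception was the Pou3f3os entry, whose FPKM was 2.40 and 4.13 in the libraries so labelled, against 5.20 and 1.98 in the controls. Among the 4 that were lower, the Lhx1os entry was near 0 in both libraries, at 0 FPKM against 0.0883 FPKM, too low to show a depletion. Evx1 was at 30.23 and 37.05 FPKM in shEVX1, against 53.88 FPKM in its 1 control. Markers fitted the labels of the cultures. Neural progenitor genes (Sox1, Pax6, Nes and Sox3) summed to 292 and 374 FPKM in the retinoic acid controls, against 7.92 to 67.0 FPKM in the 5 LIF-withdrawal controls. Streak mesoderm genes (T, Mixl1, Eomes and Mesp1) summed to 2.09 and 2.67 FPKM in the retinoic acid controls, against 50.3 to 555 FPKM in the LIF-withdrawal controls. Pluripotency genes (Pou5f1, Nanog, Zfp42 and Esrrb) were at 64.5 and 416 FPKM in the retinoic acid controls, so these 2 libraries stood apart, against 278 to 875 FPKM in the LIF-withdrawal controls.

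Replication-dependent histone genes supply the H2A, H2B, H3 and H4 of the nucleosome core and the linker H1 while DNA is copied. Their genes mostly lack introns, and their mRNAs normally end in a short stem-loop, bound by the stem-loop binding protein Slbp, and not in a poly(A) tail. Polyadenylated forms of some of these mRNAs are known, mainly in cells that leave the cell cycle. A library made from RNA caught on oligo-dT beads therefore holds mRNA of these genes that either has a tail or passed the beads without one, and the FPKM values here do not tell these apart.

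The stem-loop is shown because it is the feature that sets these mRNAs apart from others. A script searched the sense strand of GENCODE M21 transcripts for the 16-base histone stem-loop, with free bases at the variable places of stem and loop, and 41 of 64 members held it in the transcript used, against 40 of 55277 other gene names (0.0724%). Some annotated transcripts without a match end with the coding sequence, as those of Hist1h2ai, Hist1h2an and Hist1h2ak do at 393 bases. A missing match there does not show that the gene lacks the stem-loop. The most abundant member of each class that had a match, and Hist3h2ba, read as follows, with the match in capitals.

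Hist1h1c: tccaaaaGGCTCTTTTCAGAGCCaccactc

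Hist1h2ao: aaaaaaaGGCTCTTTTCAGAGCCatccaca

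Hist1h2bk: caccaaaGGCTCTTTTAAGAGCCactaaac

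Hist1h3e: ccaaaacGGCTCTTTTAAGAGCCacctcca

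Hist1h4d: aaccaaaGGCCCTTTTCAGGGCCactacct

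Hist3h2ba: acccaaaGGCTCTTTTCAGAGCCaccttcc

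The form in Hist1h1c was shared by 23 members, and the H4 form in Hist1h4d by 7. The hexamer AATAAA, the usual signal for polyadenylation, lay in the last 60 bases of the transcript of 12 of 64 members, against 60.1% of 21814 other coding gene names. The 12 were Hist1h2ae, Hist1h4a, Hist3h2ba, Hist1h1c, Hist2h4, Hist3h2a, Hist1h4j, Hist1h2bp, Hist2h3c1, Hist4h4, Hist2h2be and Hist1h1t. In transcripts annotated only to the end of the coding sequence the hexamer could not be found past it, so its share among members may be understated. A match is a feature of the annotated sequence and does not show which ends were made in these cells.

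By their means over the 19 libraries, the members fell into 2 ranges of level that did not meet. Hist1h2a entries other than the testis form Hist1h2aa, 11 in all, averaged 16.9 to 1112 FPKM over the 19 libraries, with a median of 298 FPKM. The other 53 members averaged 0.0172 to 12.4 FPKM, with a median of 2.85 FPKM. In some LIF-withdrawal libraries the ranges met, as in the EVX1 control, with Hist1h2ac at 7.83 FPKM and the H4 entry Hist1h4d at 27.8 FPKM. This division by name was made after the values were seen, so it is a description and carries no test. Levels here are per length, but how reads shared by near-identical entries were split is not known. Annotated transcripts also differ in length, as 405 bases for Hist1h2ah and 2482 bases for Hist1h2ac. Ranks among single entries are therefore uncertain. The 11 entries made up 59.8 to 98.8% of the summed FPKM of all members in a library.

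Hist1h2ao, an H2A gene at chromosome 13, 21902236 to 21902749, was the most abundant member. Its FPKM was 1883 and 1785 in shNr2f1as, 1871 in shSox21os and 1870 and 1885 in those labelled shPou3f3os, against 2693 and 2870 in the controls of these cultures. In LIF withdrawal its FPKM was 561 and 418 in shEvx1as against 526, and 597 and 635 in shEVX1 against 531 in the control. It was at 618 and 425 FPKM in shFendrr against 763 and 687 FPKM, and at 145 FPKM in shLhx1os against 370 FPKM in the control. All retinoic acid libraries lay above all LIF-withdrawal libraries. Hist1h2ah, Hist1h2ad and Hist1h2ai came next, at 75.6 to 1222, 76.8 to 1223 and 61.1 to 1137 FPKM, followed by Hist1h2an, Hist1h2af, Hist1h2ab, Hist1h2ag, Hist1h2ae and Hist1h2ak. Hist1h2ac was lowest of the 11, at 2.12 to 47.7 FPKM.

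**Figure D1:**
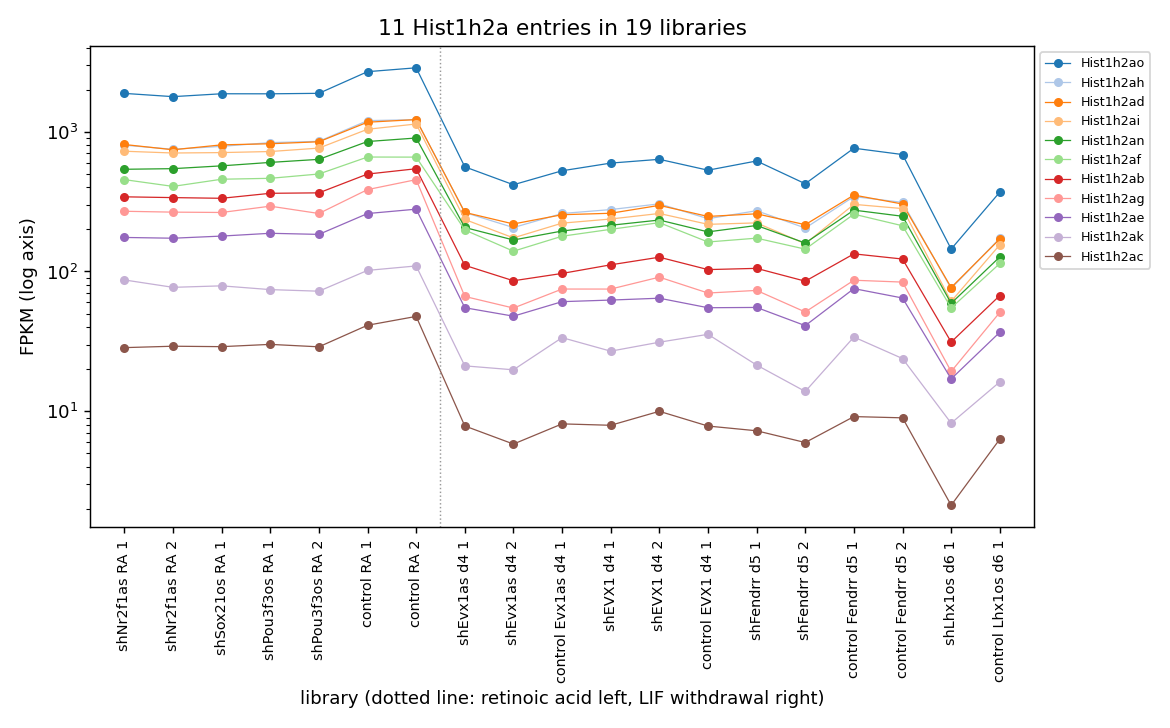
FPKM (log axis) of the 11 Hist1h2a entries in each of the 19 libraries, 1 line per gene and 1 point per library, with retinoic acid libraries left of the dotted line and LIF-withdrawal libraries right of it. The lines run nearly parallel: Hist1h2ao lies between 145 and 2870 FPKM and Hist1h2ac between 2.12 and 47.7 FPKM.

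The 11 entries kept nearly the same proportions in every library. Hist1h2ao took 26.3 to 30.8% of their summed FPKM, although its own level ranged 19.8-fold. Hist1h2ah took 12.8 to 13.7%, with a level that ranged 16.2-fold. Shares varied most for Hist1h2ak, at 0.920 to 1.91% of the sum, and for Hist1h2ag, at 3.29 to 4.81%. The values of these 11 entries are therefore not 11 independent measurements.

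Their coding sequences are close to identical, which is why a stretch is shown. Over the first 360 coding bases, the median identity of Hist1h2ao to the other 10 was 99.0%, and the lowest median, that of Hist1h2ak, was 97.5%. A run of 68 bases, coding bases 169 to 236, was the same in all 11. Coding bases 157 to 216 of GENCODE M21 transcripts are given for 3 of them and for 2 relatives, with capitals where a base differs from Hist1h2ao.

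Hist1h2ao: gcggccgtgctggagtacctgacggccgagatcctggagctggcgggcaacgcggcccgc

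Hist1h2ac: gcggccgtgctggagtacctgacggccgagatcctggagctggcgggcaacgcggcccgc

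Hist1h2ak: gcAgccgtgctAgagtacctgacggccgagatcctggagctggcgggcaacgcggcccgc

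Hist2h2ac: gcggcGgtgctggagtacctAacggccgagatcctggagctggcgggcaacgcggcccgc

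H2afx: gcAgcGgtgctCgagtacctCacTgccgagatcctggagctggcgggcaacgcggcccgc

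Only 6.21% of the 30-base words of the Hist1h2ao transcript occurred in no other GENCODE gene, against 83.0% for the much longer Hist1h2ac transcript, 88.4% for Hist1h1c and 97.5% for Hist2h4. For Hist2h2aa2 and Hist2h3c1 it was 0%. The sources used here do not give how the authors' counting split such reads, so the value of a single Hist1h2a, H3 or H4 entry is uncertain and sums are given beside it. Hist1h2ap, which shares 364 such words with the coding sequences of the 11, was not analysed here. Median identity in the coding bases compared above was 97.5 to 99.2% among the 11, and at most 92.5% for the other H2A genes compared. The high levels thus lay with the entries closest to each other in sequence. Whether shared reads shaped these levels was not tested. Of the less similar genes H2afj was highest, at 13.0 to 36.9 FPKM, within the range of Hist1h2ac. Genes outside the 11 also shared words with them, and to which entries such reads were assigned is not known. H2afx, the H2A variant that marks DNA breaks when phosphorylated, shared 122 words with the 11 and was at 0 to 0.526 FPKM in the 19 libraries. Hist2h2ac, with 92 shared words, was at 0.260 to 14.8 FPKM, and Hist3h2a, with 71, at 0.729 to 6.43 FPKM.

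H2A and H2B genes often lie head to head with a shared promoter, and 11 such pairs of members have starts at most 500 bases apart in GENCODE M21. In the pairs the H2B partner stayed low where the H2A partner was high. Hist1h2ah was at 75.6 to 1222 FPKM, while Hist1h2bk, whose start lies 302 bases away, was at 2.28 to 12.7 FPKM. Hist1h2ad was at 76.8 to 1223 FPKM and its partner Hist1h2bf at 0.271 to 6.77 FPKM. In every library each of the 7 pairs from Hist1h2ah to Hist1h2ak had the H2A partner above the H2B partner. Among these, Hist1h2ag and Hist1h2bj were paired by name. As deposited, Hist1h2bj spans 21898281 to 21902068, beside Hist1h2ao and not beside Hist1h2ag at 22134346 to 22134818. The values of that pair may therefore not come from genes that lie head to head. The exception among pairs with a Hist1h2a entry was Hist1h2ac, at 2.12 FPKM in the shLhx1os library where its partner Hist1h2bc was at 56.7 FPKM. Hist1h2ac also lay below Hist1h2bc in the Lhx1os, Evx1as and EVX1 controls and in both shEvx1as libraries. The same held in replicate 2 of shFendrr and of its control. In the other LIF-withdrawal libraries and in all retinoic acid libraries Hist1h2ac lay above Hist1h2bc.

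The promoter between Hist1h2ah and Hist1h2bk is shown as the DNA that both genes of a pair with such unequal values share. It is the RefSeq window of 250 bases before to 50 after the start of H2ac12, the current symbol of Hist1h2ah, at chr13:22035594-22035893 of GRCm38.p6, minus strand. Capitals mark CCAAT on either strand and TATAAA.

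Hist1h2ah: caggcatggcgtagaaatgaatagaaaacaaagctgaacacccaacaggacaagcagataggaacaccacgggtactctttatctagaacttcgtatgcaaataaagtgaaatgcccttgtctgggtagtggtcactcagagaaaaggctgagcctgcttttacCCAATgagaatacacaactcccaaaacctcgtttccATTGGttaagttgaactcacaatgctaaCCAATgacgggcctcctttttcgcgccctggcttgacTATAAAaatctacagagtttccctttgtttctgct

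CCAAT occurred on either strand in the promoter windows of all 11 Hist1h2a entries and of 38 of 47 other members with a window, against 37.4% of 32851 windows. TATAAA occurred in 7 of 11 and 27 of 47, against 13.6% of all windows. These are matches of letters in windows of 300 bases, and the 2 motifs do not overlap.

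Among the other members, the H4 genes led with Hist1h4d, at 2.72 to 27.8 FPKM, and Hist1h4a, at 0.908 to 19.9 FPKM. The H2B gene Hist1h2bc was at 3.96 to 56.7 FPKM. H3 entries were even, with means of 1.05 FPKM (Hist2h3c1) to 5.58 FPKM (Hist1h3e). The linker histone Hist1h1c, a main H1 of somatic cells, was at 0.985 to 32.1 FPKM and was the only H1 entry whose mean exceeded 1.35 FPKM. Testis forms were low: Hist1h1t reached 0.141 FPKM and Hist1h2aa 1.24 FPKM, and each was above 0 in 3 libraries, while the testis H2B Hist1h2ba was at 0.541 to 7.39 FPKM. Hist1h1t, Hist1h2aa and Hist3h2bb-ps, a pseudogene above 0 in 4 libraries, were the members nearest the rule's limit of 2 libraries, and no entry with a fitting name lay below it.

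Tests were run on the 14942 entries that reached 1 FPKM in 2 or more libraries, among them 56 of 64 members: all 11 Hist1h2a entries and 45 others. Tests used limma on log2(FPKM + 1), a scale that understates changes of low entries, with Benjamini-Hochberg adjustment over all 14942 entries and a threshold of 0.05. A log2 change is the first-named group minus the second.

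The retinoic acid controls held far more of the Hist1h2a RNAs, and less of most other members that changed, than the LIF-withdrawal controls. Summed FPKM of the 11 Hist1h2a entries was 8907 and 9448 in the retinoic acid controls, against 1911, 1862, 2633, 2351 and 1288 in the Evx1as, EVX1, 2 Fendrr and Lhx1os controls. The groups did not overlap, nor did they for any of the 11 entries, against 27.8% of all entries. All 11 entries were higher, with log2 changes of 1.91 to 2.58 (median 2.31) and adjusted p of 8.68e-08 to 4.64e-06. Over all entries tested 30.3% were higher and 29.5% lower, and the median log2 change was 0.00. Hist1h2ag rose most, at 386 and 454 FPKM in the retinoic acid controls, against 51.0 to 86.6 FPKM in the LIF-withdrawal controls (log2 change 2.58 ± 0.15 SE, adjusted p = 2.40e-07 by limma). Hist1h2ak rose least (log2 change 1.91 ± 0.17 SE, adjusted p = 4.64e-06 by limma). Cell line, medium, serum and retinoic acid differ together between these cultures and cannot be told apart, nor can more cells with the RNA and more RNA per cell in bulk samples. Day differed for the Fendrr and Lhx1os controls only. The Evx1as and EVX1 controls, with sums of 1911 and 1862 FPKM, were at day 4 like the retinoic acid controls.

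Of the 45 other members tested, 23 were lower and 1 was higher in the retinoic acid controls, against 29.5% lower and 30.3% higher over all entries. Their median log2 change was -0.77. With the 8 that were not tested, the 53 other members summed to 106 and 139 FPKM in the retinoic acid controls, against 331, 288, 142, 130 and 200 FPKM in the Evx1as, EVX1, Fendrr and Lhx1os controls, so the sums overlapped. The 1 that rose was Hist3h2ba, an H2B gene of the Hist3 cluster, at 11.3 and 10.5 FPKM in the retinoic acid controls, against 0.432 to 4.97 FPKM in the LIF-withdrawal controls (log2 change 2.00 ± 0.31 SE, adjusted p = 0.000229 by limma). It was also at 8.62 to 15.8 FPKM in the 5 retinoic acid knockdowns and at 0.738 to 3.75 FPKM in the 7 LIF-withdrawal knockdowns.

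H4 genes made up 8 of the 23, of 12 tested. Hist1h4f was at 0.454 and 0.432 FPKM in the retinoic acid controls, against 12.2, 8.81, 7.54, 0.975 and 5.74 FPKM in the Evx1as, EVX1, 2 Fendrr and Lhx1os controls (log2 change -2.42 ± 0.51 SE, adjusted p = 0.00185 by limma). Hist1h4d was at 2.72 and 9.51 FPKM, against 7.54 to 27.8 FPKM, and these groups overlapped (log2 change -1.79, adjusted p = 0.00357). Without retinoic acid control replicate 1 the change was -1.04 and the call was lost (adjusted p = 0.0680). Another 8 were H2B genes, of 14 tested. Hist2h2bb was at 2.18 and 1.48 FPKM in the retinoic acid controls, against 2.49 to 17.8 FPKM in the LIF-withdrawal controls (log2 change -1.60, adjusted p = 0.00127). Among H3 genes, Hist2h3b, Hist2h3c1 and Hist2h3c2 of the Hist2 cluster fell, and none of the 9 Hist1h3 entries passed. Hist2h3b was at 2.01 and 1.70 FPKM, against 3.49 to 8.73 FPKM, without overlap (log2 change -1.15, adjusted p = 0.000304).

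In the linker class Hist1h1c, Hist1h1b and Hist1h1e fell, of 4 tested. Hist1h1c was at 1.60 and 1.58 FPKM in the retinoic acid controls, against 2.37 to 14.6 FPKM in the LIF-withdrawal controls (log2 change -1.31, adjusted p = 0.00774). Its call was lost without the Lhx1os control, which held the 14.6 FPKM (log2 change -0.88, adjusted p = 0.0588). The last was the H2A gene Hist2h2ac, at 1.25 and 0.955 FPKM, against 1.35 to 6.15 FPKM (log2 change -1.17, adjusted p = 0.0216). It was lost without either retinoic acid control (adjusted p = 0.0638 and 0.114), without the EVX1 control (0.0560) and with low entries kept (0.0563). In all, 11 of the 23 calls were lost when some single library was left out. An absence of overlap between the groups was seen for 15 of the 45 in the lower direction, against 25.6% of all entries. Leaving out either retinoic acid control reduced the number of other members called to 19 from 24, and all 11 Hist1h2a entries remained called in each of these fits.

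**Figure D2:**
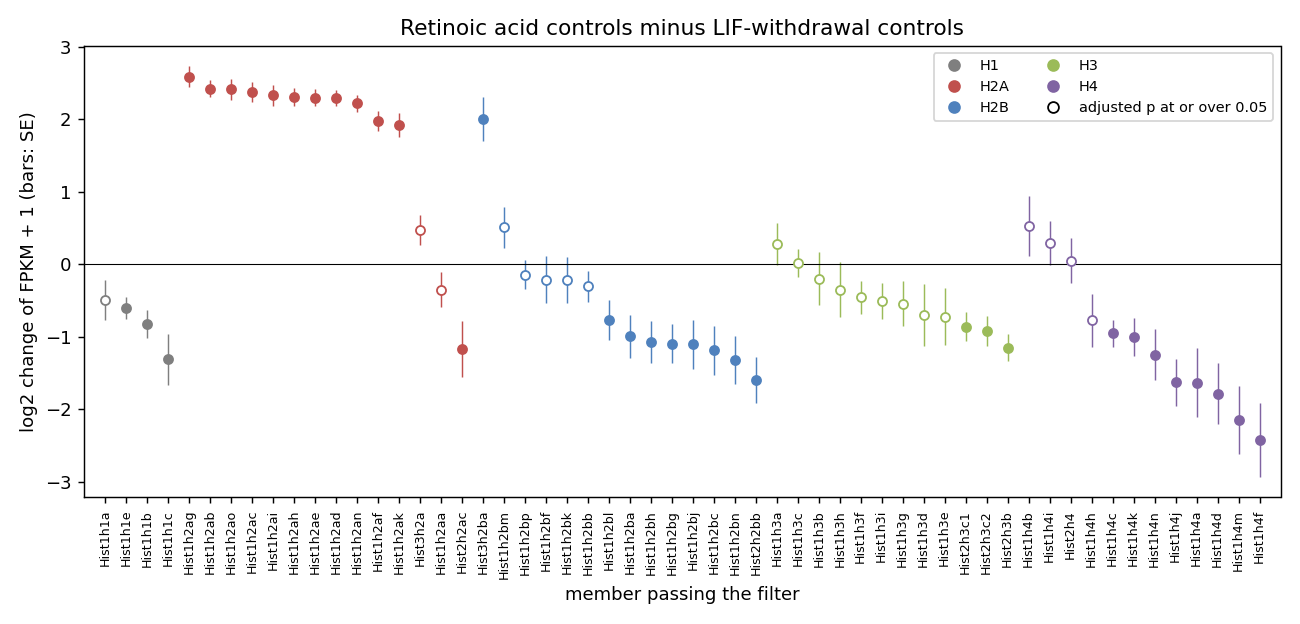
Log2 change of FPKM + 1, retinoic acid controls minus LIF-withdrawal controls, for the 56 members that passed the filter, ordered by class and coloured by it. Points are estimates, bars are SE and filled points passed the adjusted threshold of 0.05. The 11 Hist1h2a entries lie between 1.91 and 2.58 and Hist3h2ba at 2.00, while H4 entries reach -2.42.

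RNAs known to lack a poly(A) tail were read from a list, of which 6 of 25 (Rmrp, Rpph1, Scarna13, Scarna6, Terc and Vaultrc5) are in the table. Their summed FPKM was 17.5 and 34.0 in the retinoic acid controls, against 511, 258, 105, 44.6 and 164 in the Evx1as, EVX1, 2 Fendrr and Lhx1os controls. Of the 6, 4 were lower and 0 higher (median log2 change -1.42). Rmrp, the RNA of RNase MRP, was at 12.4 and 27.6 FPKM in the retinoic acid controls, against 29.6 to 474 FPKM in the LIF-withdrawal controls (log2 change -3.13, adjusted p = 0.000969 by limma). Rmrp was the largest part of the sum in both retinoic acid controls and in the Evx1as control, which had the 474 FPKM, so the sum largely follows 1 RNA. The sum moved the same way as most other members called and opposite to the Hist1h2a entries. The part of these RNAs in the result was not tested.

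**Figure D3:**
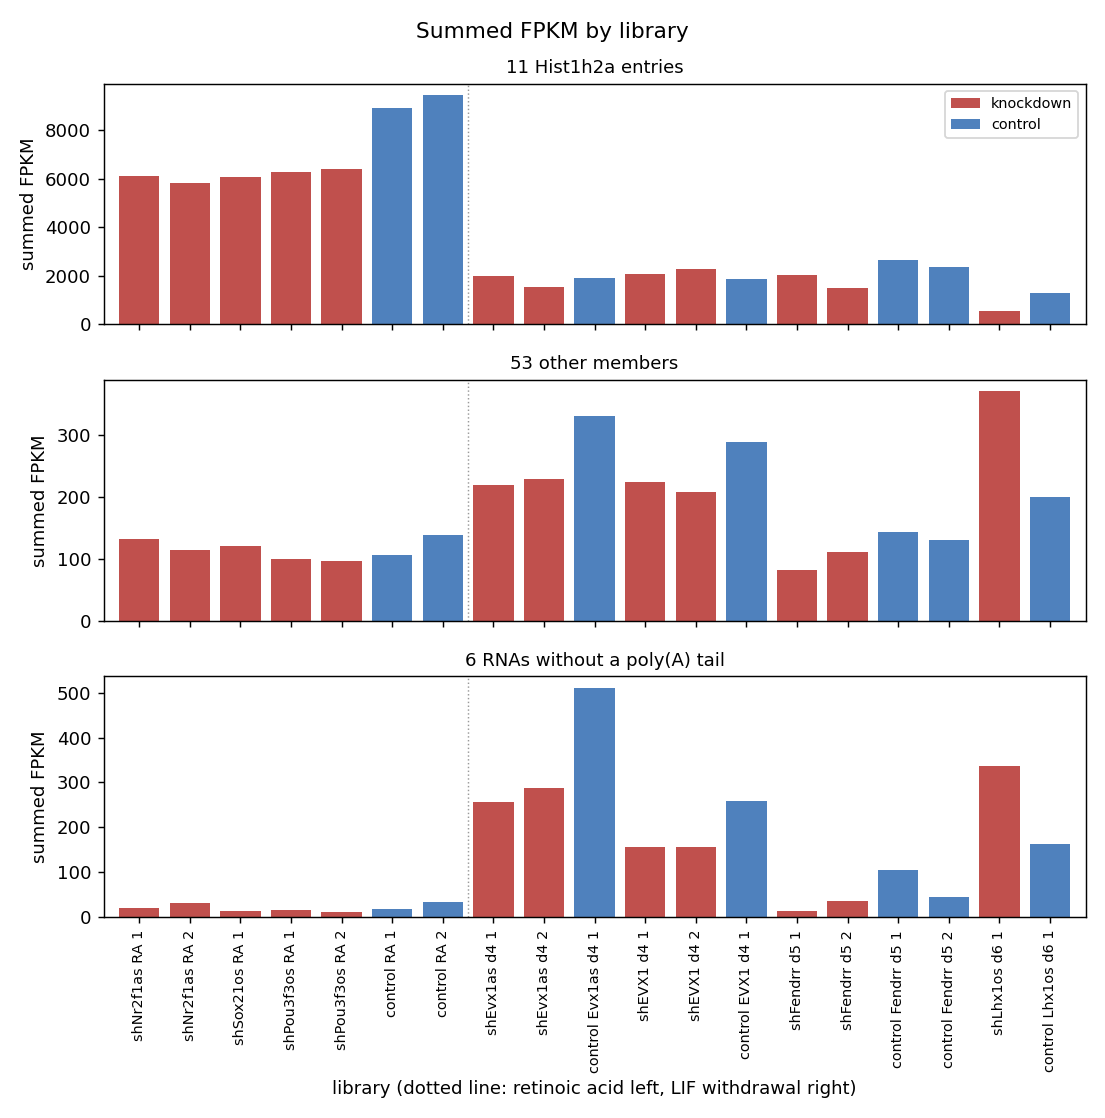
Summed FPKM of the 11 Hist1h2a entries (top), the 53 other members (middle) and the 6 RNAs without a poly(A) tail (bottom) in each library, with knockdowns in red and controls in blue. The Hist1h2a sum reaches 9448 in the retinoic acid controls and 2633 in LIF withdrawal, while the other members and the RNAs without a tail are highest in LIF-withdrawal libraries, at 370 and 511.

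Genes that work with histones did not move as 1 block between the cultures. Of 10 replication-independent histone genes tested, which supply variants and replacement histones through polyadenylated mRNAs, 7 were higher and 0 lower in the retinoic acid controls (median log2 change 0.98). H2afz, the H2A.Z gene, was at 643 and 682 FPKM in the retinoic acid controls, against 257 to 389 FPKM in the LIF-withdrawal controls (log2 change 0.97, adjusted p = 2.55e-05 by limma). H2afy and H2afy2, which encode macroH2A forms, rose by 1.60 and 2.33 on the log2 scale, and H3f3a, an H3.3 gene, by 0.64. Of 28 genes of DNA replication and S phase, 13 were higher and 3 lower (median 0.24). Uhrf1 and Tk1 rose by 1.11 and 1.01, and E2f1 by 1.07, while cyclin A2 (Ccna2) fell, to 17.03 and 20.63 FPKM in the retinoic acid controls, while the LIF-withdrawal controls had 48.3 to 68.6 FPKM (adjusted p = 0.000178).

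Of 18 histone chaperones, 8 were higher and 5 lower (median 0.25). The subunits Chaf1a and Chaf1b of the assembly factor that loads new H3 and H4 behind the fork rose by 0.80 and 1.14. Hat1, which acetylates new H4, fell by 2.62, at 2.80 and 2.48 FPKM in the retinoic acid controls, against 16.9 to 28.3 FPKM in the LIF-withdrawal controls. Of 23 genes of histone mRNA processing and transcription, 6 were higher and 7 lower (median -0.10). Zfp473, a zinc finger protein of the histone pre-mRNA processing machinery, was at 1.88 and 2.39 FPKM in the retinoic acid controls, against 6.92 to 10.1 FPKM in the LIF-withdrawal controls (log2 change -1.62, adjusted p = 1.54e-05 by limma). Eri1, an exonuclease that acts on the stem-loop end, fell by 1.07. Slbp itself was at 32.7 and 34.3 FPKM, against 29.6 to 54.1 FPKM, and did not pass.

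In the knockdowns hardly any member passed the test. The 3 retinoic acid comparisons share the same 2 controls, so their values are given side by side. In the 5 knockdown libraries the Hist1h2a entries summed to 6118 and 5817 FPKM (shNr2f1as), 6088 FPKM (shSox21os) and 6266 and 6397 FPKM (labelled shPou3f3os), while the controls held 8907 and 9448 FPKM. Each of the 11 was below both controls in every one of these libraries. The median log2 change of the 11 was -0.62 in shNr2f1as, -0.60 in shSox21os and -0.52 in the libraries labelled shPou3f3os, beside medians over all entries of 0.04, 0.03 and 0.04. None passed: the adjusted p ranged over 0.0564 to 0.362, 0.218 to 0.557 and 0.0630 to 0.166 in the same order. An absence of overlap in the lower direction was seen for 20.8%, 30.7% and 21.6% of all entries. The S phase list was also below both controls in all 5 libraries, at 1711 to 2060 FPKM against 2284 and 2225 FPKM, and so were the replication-independent histones, at 1971 to 2265 FPKM against 2446 and 2527 FPKM. Fibroblast or feeder genes (Col1a1, Col1a2, Dcn, Postn and Thy1) summed to 18.3 to 47.0 FPKM in the knockdowns, against 9.70 and 11.1 FPKM. Of these genes Col1a2, a collagen gene, was called higher in shNr2f1as and in the libraries labelled shPou3f3os (adjusted p = 0.0433 and 0.0440 by limma). Both calls were lost with the experiment fitted alone (0.191 and 0.185) and with low entries kept (0.0663 and 0.0813). Dcn and Postn stayed at 0 to 0.0617 FPKM in the 7 libraries. The part of these lists in the result was not tested.

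In shNr2f1as 0 of 56 members were called by limma, and 16 had an unadjusted p under 0.05, against 18.1% of all entries (over all entries 0.676% were called, 0.422% as higher and 0.254% as lower). Of the 45 other members, 12 lay above and 10 below both controls without overlap, against 25.5% and 20.8% of all entries. Hist1h2bh, an H2B gene, had 4.68 and 3.60 FPKM under shNr2f1as, where the controls had 1.59 and 1.51 FPKM (log2 change 1.00 ± 0.34 SE, adjusted p = 0.160). The FPKM of Hist2h3b was 0.695 and 0.466, against 2.01 and 1.70 (-0.85 on the log2 scale, adjusted p = 0.0856). Hist1h2bm was listed at 0 in both shNr2f1as libraries, against 1.06 and 1.77 FPKM in the controls.

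In shSox21os, a group of 1 library that is assumed to vary like the others, 0 of 56 members were called and 13 had an unadjusted p under 0.05, against 11.4% of all entries (0.0669% of all entries were called, 0.0468% as higher and 0.0201% as lower). Of the 45 other members, 13 lay above and 18 below both controls, against 37.2% and 30.7% of all entries. Hist2h3b was again low, at 0.240 FPKM against 2.01 and 1.70 FPKM in the controls (log2 change -1.20, adjusted p = 0.157). Hist1h4d, at 11.7 FPKM against 2.72 and 9.51 FPKM, lay above both controls (log2 change 1.02, adjusted p = 0.563).

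In the libraries labelled shPou3f3os 1 member was called, with 15 at an unadjusted p under 0.05, against 20.8% of all entries (2.32% of all entries were called, 1.60% as higher and 0.716% as lower). Of the 45 other members, 4 lay above and 15 below both controls without overlap, against 31.5% and 21.6% of all entries. Hist1h3c, an H3 gene, was at 2.07 and 2.50 FPKM, against 6.37 and 5.75 FPKM in the controls (log2 change -1.11 ± 0.23 SE, adjusted p = 0.0412 by limma). The call was lost when either knockdown library or either control was left out, when the experiment was fitted alone and when low entries were kept, with adjusted p of 0.0573 to 0.219 in these fits. The FPKM of Hist1h2bb was 0.790 and 0.562, against 2.23 and 3.10 (log2 change -1.12, adjusted p = 0.05002), and that of Hist1h3a 0.623 and 0.591, against 3.38 and 3.34 (log2 change -1.44, adjusted p = 0.0555). Both lay just outside the threshold, and without control replicate 1 Hist1h2bb passed it (adjusted p = 0.0339). Beside them Hat1, at 7.42 and 9.31 FPKM against 2.80 and 2.48 FPKM, rose (log2 change 1.36, adjusted p = 0.0243), as did the chaperone nucleophosmin (Npm1; log2 change 1.40, adjusted p = 0.0409). H2afz, with an FPKM of 413 and 485 against 643 and 682, fell (log2 change -0.56, adjusted p = 0.0487), and Srrt, a partner of the nuclear cap-binding complex, fell too (log2 change -0.52, adjusted p = 0.0497). All 4 of these calls were lost with the experiment fitted alone, without either knockdown library and without control replicate 2. Without that control the change of Npm1 was 0.83 (adjusted p = 0.155).

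In shFendrr all 11 Hist1h2a entries were again below both controls in both libraries. They summed to 2021 and 1505 FPKM in shFendrr, against 2633 and 2351 FPKM in the controls. The median log2 change was -0.50, beside 0.00 over all entries, and adjusted p was 0.367 to 0.675, so that 0 of 56 members were called, with 17 at an unadjusted p under 0.05, against 7.03% of all entries (0.147% of all entries were called, 0.0535% as higher and 0.0937% as lower, and 15.7% were lower without overlap). Without shFendrr replicate 1, 5 Hist1h2a entries were called, with 1.55% of all entries called in that fit, where the lone shFendrr library is assumed to vary like the other groups. Beside these values, neural progenitor genes summed to 32.8 and 52.0 FPKM in shFendrr, against 18.6 and 23.2 FPKM, and extraembryonic endoderm genes to 6.16 and 2.25 FPKM, against 8.44 and 7.77 FPKM. The RNAs without a tail summed to 13.3 and 37.0 FPKM, against 105 and 44.6 FPKM. Their part in the result was not tested. The other members summed to 81.6 and 111 FPKM in shFendrr, against 142 and 130 FPKM. Scarna13, a small Cajal body RNA of the list without tails, was listed at 0 in both shFendrr libraries, against 9.69 and 4.56 FPKM in the controls (adjusted p = 0.0138 by limma). That call was lost with the experiment fitted alone (0.976), without shFendrr replicate 2 (0.106) and without control replicate 1 (0.0920).

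The 2 day-4 experiments have 1 control each. In shEvx1as 0 of 56 members were called by limma and 14 had an unadjusted p under 0.05, against 4.38% of all entries at that p and 0.00669% called. The Hist1h2a sum was 1992 and 1539 FPKM in shEvx1as and 1911 FPKM in the control, which lay between them. The other members summed to 218 and 229 FPKM, against 331 FPKM, and 32 of the 45 tested were below the control in both libraries, against 26.3% of all entries. The FPKM of Hist1h4f was 0.894 and 2.30 in shEvx1as, while its control had 12.2 (log2 change -2.40 ± 0.74 SE, adjusted p = 1), and that of Hist1h4c was 1.79 and 2.30, against 7.11 (log2 change -1.42, adjusted p = 0.728). Hist1h2bc went the other way, at 15.5 and 21.8 FPKM against 11.3 FPKM (log2 change 0.66, adjusted p = 1). The RNAs without a tail summed to 257 and 288 FPKM in shEvx1as, where the control had 511 FPKM. Streak mesoderm genes summed to 149 and 47.1 FPKM, against 210 FPKM, and 4 of 4 lay below the control in both libraries.

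In shEVX1 0 of 56 members were called by limma and 3 had an unadjusted p under 0.05, against 3.32% of all entries at that p and 0.00669% called. The Hist1h2a entries summed to 2071 and 2278 FPKM in shEVX1, against 1862 FPKM in the control, and 10 of the 11 lay above it in both libraries, against 46.7% of all entries. The other members summed to 224 and 207 FPKM, against 288 FPKM, and 31 of 45 lay below the control in both libraries, against 26.5% of all entries. Hist1h4j was at 1.89 and 2.38 FPKM in shEVX1, against 6.49 FPKM (log2 change -1.26, adjusted p = 1). The RNAs without a tail summed to 157 and 155 FPKM, against 258 FPKM in the control. In both day-4 experiments the sum of these RNAs and the sum of the other members were lower than in the control together. The part of these RNAs in the result was not tested.

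The shLhx1os library had the lowest Hist1h2a sum and the highest sum of other members of all 19 libraries. With 1 library a group there is no test and no replicate check, so the counts are of 2-fold changes, among entries that reached 5 FPKM in either library. The Hist1h2a entries summed to 550 FPKM in shLhx1os, against 1288 FPKM in the control, and 10 of 11 were past 2-fold lower, against 7.67% of 9015 entries. The last, Hist1h2ak, was at 8.21 FPKM against 16.2 FPKM. The other members summed to 370 FPKM, against 200 FPKM, and 14 of the 26 with at least 5 FPKM were past 2-fold higher and 0 lower, against 5.78% of all entries higher. Over all 53 whatever their level, 37 were above and 13 below the control. The share over all entries was not computed for that count, which includes entries near 0 FPKM, so it is not read further. Since the minimum is met through the higher library, the 2-fold counts describe the pair only.

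The 14 came from every class and from 2 clusters. Hist1h1c was at 32.1 FPKM in shLhx1os, against 14.6 FPKM in the control, and Hist1h2bc at 56.7 FPKM, against 19.7 FPKM. The H4 gene Hist1h4i was at 17.6 FPKM, against 3.04 FPKM. In the Hist2 cluster, Hist2h2bb was at 14.2 FPKM against 2.49 FPKM, Hist2h2ac at 14.8 FPKM against 3.81 FPKM, Hist2h3c2 at 9.97 FPKM against 1.51 FPKM and Hist2h3c1 at 5.58 FPKM against 0.951 FPKM. The 11 other members with AATAAA near the annotated transcript end summed to 69.1 FPKM in shLhx1os, against 33.4 FPKM in the control. The 42 without it there summed to 300 FPKM, against 166 FPKM, so both sums were higher. Some of these 42 hold AATAAA elsewhere in the transcript, as does Hist1h2bc, the largest of them in shLhx1os. The split therefore does not part members with the hexamer from members without it.

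In the same pair the RNAs without a tail summed to 337 FPKM in shLhx1os, against 164 FPKM in the control. This was mostly Rmrp, at 309 FPKM against 150 FPKM, and Vaultrc5 went the other way, at 0 FPKM against 1.15 FPKM. The S phase list summed to 923 FPKM, against 1551 FPKM, and the replication-independent histones to 920 FPKM, against 1372 FPKM, so these lay lower with the Hist1h2a entries. Histone mRNA processing genes summed to 439 FPKM, against 516 FPKM, and chaperones to 1126 FPKM, against 1350 FPKM. Among the cell type markers, neural progenitor genes summed to 57.6 FPKM in shLhx1os, against 7.92 FPKM, which was mostly Nes, at 55.0 FPKM against 6.02 FPKM, since Sox1, Pax6 and Sox3 were below 2 FPKM in both libraries. Extraembryonic endoderm genes summed to 1.93 FPKM, against 18.3 FPKM, and blood genes to 0.147 FPKM, against 12.6 FPKM. The part of these in the result was not tested.

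**Figure D4:**
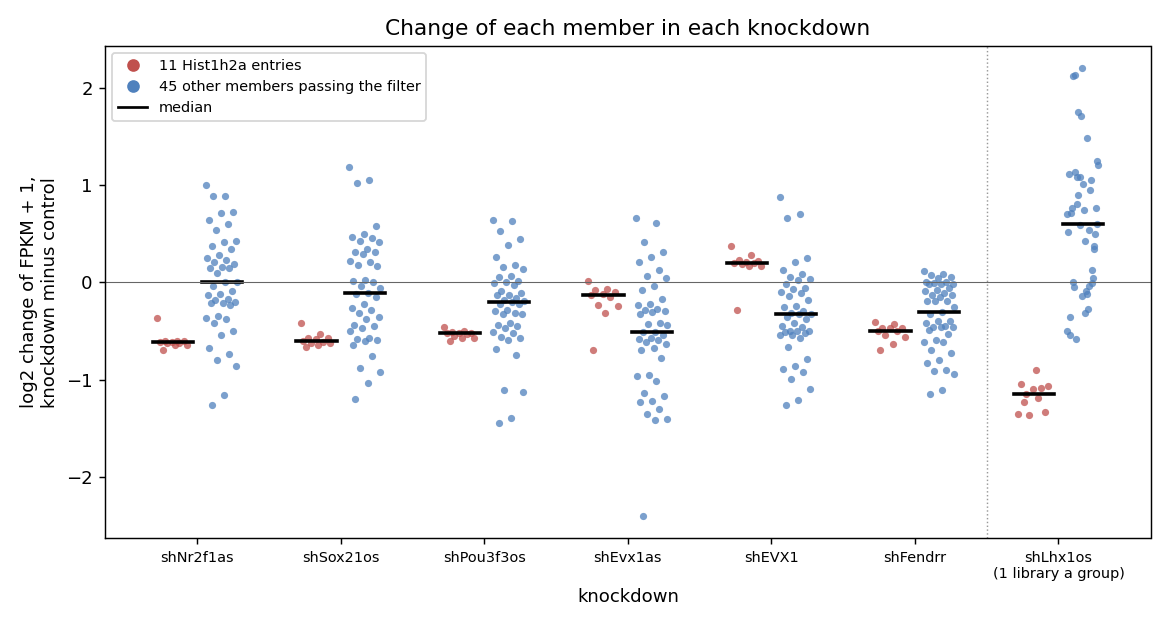
Log2 change of FPKM + 1, knockdown minus control, for the 11 Hist1h2a entries (red) and the 45 other members that passed the filter (blue) in each knockdown, 1 point per member, with black lines at the medians. The Hist1h2a points lie close together, with medians of -0.62, -0.60 and -0.52 in the retinoic acid knockdowns and -0.50 in shFendrr, and in shLhx1os, which has 1 library a group, most of the other members lie above 0 and all Hist1h2a entries below.

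Across the CJ9 controls the 2 sets followed no common order with time. The Hist1h2a sum was 1862 FPKM at day 4, 2633 and 2351 FPKM at day 5 and 1288 FPKM at day 6. The other members summed to 288 FPKM at day 4, 142 and 130 FPKM at day 5 and 200 FPKM at day 6. Hist1h1c was at 2.37 FPKM at day 4, 3.47 and 5.23 FPKM at day 5 and 14.6 FPKM at day 6. Hist1h3c was at 6.51 FPKM, 5.74 and 4.21 FPKM and 3.58 FPKM at the same days. Days 4 and 6 rest on 1 library each, so no test was made.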

How the data were processed

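The authors deposited 1 table of FPKM values for 38424 entries and 19 libraries, and 0 of its sample columns were left unmapped. RNA was purified on oligo-dT beads and made into libraries with a stranded mRNA kit, per the labels' protocols. CASAVA and TopHat2 2.0.11 are named in the submitters' processing notes, with the builds mm10 and mm9. For the quantifier, the annotation and the use of strand, the sources used here give nothing. Of the entries, 116 lie on random chromosomes of the mm9 kind, so positions are given as in the table and read as mm9, with starts counted from 1. Sequence came from GENCODE M21 and RefSeq (GRCm38), matched by symbol for 64 of 64 members, and 58 had a promoter window.

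From these values log2(FPKM + 1) was computed and limma 3.58.1 (R 4.3.3) fitted 1 linear model with 12 group means over the 19 libraries, using a variance trend. The 7 groups of 2 libraries gave 7 residual degrees of freedom, and the 5 groups of 1 library are assumed to vary like the others. No count test was used, since depth and counts are unknown. The model was tried on simulated data with known changes. Members and gene lists were chosen with earlier results of these data known. Named members were the 12 with the highest mean, those called, and in each comparison the 3 highest and 3 lowest changes among those without overlap, of which a selection is given. Other members were named after their values were seen.

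The other marker lists, summed, were at these levels. Neuron genes were at 55.7 and 57.3 FPKM in the retinoic acid controls, against 5.51 to 17.5 FPKM in the LIF-withdrawal controls. Fibroblast or feeder genes were at 9.70 and 11.1 FPKM, against 10.4 to 49.1 FPKM. Extraembryonic endoderm genes were at 6.00 and 6.45 FPKM, against 5.31 to 18.3 FPKM. Germ cell genes were at 1.44 and 4.11 FPKM, against 1.49 to 4.37 FPKM, and blood genes were listed at 0, against 0 to 12.6 FPKM.

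Alternatives were a pseudocount of 0.1, no minimum level or a minimum of 5 FPKM, libraries rescaled to the same upper quartile, no variance trend, each experiment fitted alone, the replicate number as a block, each library left out in turn, and sums without the most abundant member.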

Additional observations from a re-analysis of the deposited data

How the results depend on the processing

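The Hist1h2a entries kept 11 calls in the retinoic acid against LIF-withdrawal comparison under every alternative run, with medians of 2.15 to 2.35. Values that moved by more than the spread between replicates were these. With a pseudocount of 0.1 the median log2 change of other members was -0.46 in shEVX1, -0.46 in shFendrr and -1.24 between the cultures. That of all members was -0.44 in shSox21os, -0.46 in shPou3f3os and -0.77 between the cultures. With entries above 0 in 2 libraries kept, the medians between the cultures were -0.36 for all and -0.54 for other members. With a minimum of 5 FPKM, other members had a median of 0.17 in shSox21os and -0.96 between the cultures. The number of members called in shPou3f3os, all outside the Hist1h2a entries, was 2 with the pseudocount of 0.1, 0 with low entries kept, 3 after rescaling to the upper quartile and 0 with the experiment alone. The cause of these moves was not tested.

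Leaving out 1 library at a time gave, for shEvx1as, a Hist1h2a median of -0.34 to 0.055, an other-member median of -0.50 to -0.35, and log2 sum ratios of -0.34 to -0.020 for all members and -0.31 to 0.060 for the Hist1h2a entries. For shFendrr it gave 0 to 5 calls, all of them Hist1h2a entries and all without shFendrr replicate 1, a Hist1h2a median of -0.71 to -0.29 and an other-member median of -0.39 to -0.13. The log2 sum ratios there were -0.70 to -0.32 for all members, -0.73 to -0.30 for the Hist1h2a entries and -0.74 to -0.29 for other members. For shNr2f1as the median was -0.32 to -0.016 for all and -0.24 to 0.12 for other members, with a sum ratio of -0.17 to 0.21 for other members. For shSox21os these were -0.45 to -0.18, -0.34 to -0.090 and -0.21 to 0.18. For shPou3f3os they were -0.49 to -0.19, -0.35 to -0.093 and -0.51 to -0.12, with 0 to 1 calls. Between the cultures they were -0.59 to -0.21, -0.84 to -0.57 and -1.17 to -0.76. The lone LIF-withdrawal controls were left out as an addition chosen after seeing the data.

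With the replicate number as a block, fitted to the groups compared, 0 members and 0 entries were called in shFendrr, shNr2f1as and shPou3f3os. With the experiment alone and no block these counts were 0 as well, so the loss cannot be put down to the block. Deviations of same-numbered libraries had correlations of 0.35, 0.30 and -0.02 over 2 pairs each, too few to tell whether the numbers pair the libraries. Fitted alone, experiments called 0 entries in shEvx1as, shEVX1, shFendrr, shNr2f1as and shPou3f3os, against 1, 1, 22, 101 and 346 with all 19 libraries in the fit. Counts over all entries also moved when single libraries were left out: 2 to 231 in shFendrr, 43 to 391 in shNr2f1as, 29 to 186 in shSox21os and 0 to 1240 in shPou3f3os. Depth is unknown, so the error of low entries, most members among them, cannot be given.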
